A study of Mus musculus with 11 samples.

Results

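Ceramide synthases and a small set of related sphingolipid enzymes were followed through mouse spermatogenesis, from spermatogonia to pachytene spermatocytes. The set held 10 of the 20389 genes in the UMI table: the 6 ceramide synthases Cers1 to Cers6, and Sgpp1, Ugt8a, Fa2h and Elovl2. They were picked by gene name, for an order of Cers isoforms over germ cell stages that had been seen in these same cells, so their levels are given as a description and were not tested. UMIs are unique molecular identifiers, short random tags that mark the original RNA molecules.

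Ceramide is the backbone of all complex sphingolipids, and a ceramide synthase makes it by joining a fatty acyl chain to a sphingoid base. Each isoform prefers acyl chains of a different length, so the isoform a cell uses bears on the sphingolipids it can make. CERS6 and CERS5 mainly use palmitoyl chains, CERS1 stearoyl chains, CERS2 very long chains, and CERS3 the very long to ultra long chains found in testis and skin. ELOVL2 lengthens polyunsaturated fatty acids, FA2H adds a hydroxyl group to the acyl chain, UGT8A adds galactose to ceramide and to ether lipids, and SGPP1 removes the phosphate from sphingosine 1-phosphate. Male germ cells are known for sphingolipids with very long polyunsaturated chains and for seminolipid, a sulphated galactolipid on an ether lipid backbone that UGT8A helps to make.

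The cells came from adult testes of 3 Dazl-GFP reporter mice, in which green fluorescent protein marks cells that use Dazl, a germ cell gene. Live, GFP-positive cells were sorted singly into wells and profiled by SORT-Seq, which counts the 3' ends of polyadenylated RNA. No mouse was treated and all groups carry the reporter, so stages were compared within mice and the replicate was the mouse (n = 3). Mouse 1 gave 8 index-sorted libraries by CEL-Seq1, mouse 2 gave 1 index-sorted library by CEL-Seq2, and mouse 3 gave 1 index-sorted and 1 gate-sorted library by CEL-Seq2. The protocol went with the mouse, so a difference between mouse 1 and the other mice cannot be told apart from the protocol. Strain and exact age were not analysed here.

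Wells with at least 1000 UMIs were kept, 1448 of 1920, with median UMIs of 16275, 9830 and 14132.5 per kept cell in mice 1, 2 and 3 and total UMIs of 16682671, 5866174 and 18032562. Clustering without the genes described here gave 11 stages with 1160 cells, ordered by diffusion pseudotime. Stage 1 was undifferentiated spermatogonia-like, stages 2 and 3 differentiating spermatogonia-like, stages 4 and 5 preleptotene-like, stages 6 to 8 leptotene and zygotene-like, and stages 9 to 11 pachytene-like. These names were rebuilt from marker genes. Undifferentiated and differentiating markers were equally many among the leading genes of stage 1, and preleptotene, leptotene and Sertoli markers among those of stage 5 (the Sertoli gene was Clu). Pachytene and undifferentiated markers were equally many in stage 9, the latter through Id4. The mean log level of preleptotene markers exceeded that of the other cells by 0.18 in stage 4 and 0.72 in stage 5. With finer clusters (Leiden resolution 1.5) BC024386, a leading gene of stage 4, led a differentiating spermatogonia-like cluster (71 cells). Rec8, another leading gene of stage 4, led a preleptotene-like cluster (55 cells), and both clusters were early stages. The name of stage 4 is thus less certain than that of stage 5. Stages 3 and 8 had 0 markers of their class among their 10 leading genes (Gnas, Hemt1, Gml, Mnd1 and H2afx were among those of stage 8), and their names rest on the mean marker level alone. Ugt8a was among the 10 leading genes of stage 5, and Sgpp1 and Cers3 among those of stage 9, although they took no part in the clustering. Stages 1 to 3 are called early, 4 to 8 middle and 9 to 11 late below. The 10 Sertoli cell markers summed to 108 to 360 CPM (UMIs per 1000000 endogenous UMIs of a mouse and stage) in the early sums, 125 to 809 in the middle and 17.1 to 96.1 in the late sums, with Rhox5 at 0 in the late stages; their part in the results was not tested. The summed markers of Leydig, myoid and endothelial cells and macrophages were at most 27.7 CPM in any sum.

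CPM is a share of the mRNA, and the amount of mRNA differed between stages. Endogenous UMIs per ERCC spike-in UMI (RNA of known amount added to each well) were lower than in stage 1 by a log2 value of -1.90 ± 0.38 (SD, n = 3) in stage 6, and higher by 1.44 ± 0.45 in stage 11. A level in CPM and a level per spike-in can therefore differ in direction and in the stage of the maximum. Levels by stage below are in CPM unless another scale is named. A UMI at the 3' end stands for 1 molecule whatever the transcript length, so CPM needs no correction for length. How fully each gene was captured and counted was not measured, so levels and shares of different genes are compared as counted UMIs. Some genes differed widely between mice. In stage 2, Gla stood at 175.5, 20.2 and 16.4 CPM in mice 1, 2 and 3, and Hexa at 11.9, 29.4 and 77.9 CPM.

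Sequences upstream of the start site are shown for 3 members highest after the spermatogonial stages whose upstream window overlapped no annotated exon. They are Ugt8a, highest in stage 5, and Cers3 and Sgpp1, highest in CPM in stage 9. Stra8 was also among the leading genes of stage 5. With finer clusters (Leiden resolution 1.5) Stra8 was among those of a preleptotene-like cluster (74 cells). Ugt8a was then among those of a leptotene and zygotene-like cluster (52 cells). Without alignment across mice both were among those of 1 cluster (93 cells). Each sequence is the 200 bases before the RefSeq start on the gene's strand (GRCm38.p6), at chr3:125938653-125938852 (minus strand), chr7:66743304-66743503 (plus) and chr12:75735730-75735929 (minus). Capitals mark matches on either strand to CNCCTCAG, the motif of the meiotic factor STRA8, or to AACNGNC, the motif of MYB factors such as MYBL1 of pachytene cells.
Ugt8a: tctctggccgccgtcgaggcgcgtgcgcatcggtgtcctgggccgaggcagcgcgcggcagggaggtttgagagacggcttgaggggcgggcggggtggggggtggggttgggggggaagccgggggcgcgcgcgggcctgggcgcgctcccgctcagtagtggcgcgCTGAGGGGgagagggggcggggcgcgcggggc
Cers3: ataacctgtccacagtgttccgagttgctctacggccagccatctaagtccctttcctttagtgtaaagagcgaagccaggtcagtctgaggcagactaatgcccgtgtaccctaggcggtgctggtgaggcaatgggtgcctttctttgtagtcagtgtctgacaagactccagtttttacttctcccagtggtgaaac
Sgpp1: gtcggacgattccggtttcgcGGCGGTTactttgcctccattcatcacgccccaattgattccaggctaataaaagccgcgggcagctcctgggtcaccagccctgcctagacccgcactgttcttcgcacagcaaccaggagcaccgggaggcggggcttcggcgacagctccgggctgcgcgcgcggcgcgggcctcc
The Ugt8a window held 1 STRA8 match, starting 32 bases before the start site, and STRA8 matches occurred in 5.19% of 32851 RefSeq promoter windows of the same length. Sgpp1 held 1 MYB match, starting 179 bases before the start, as did 22.7% of all windows. The Cers3 window held no match to either motif or to the cyclic AMP response element TGACGTCA, which 1.47% of all windows held. A match is a string of letters and was not tested for binding.

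**Figure D1:**
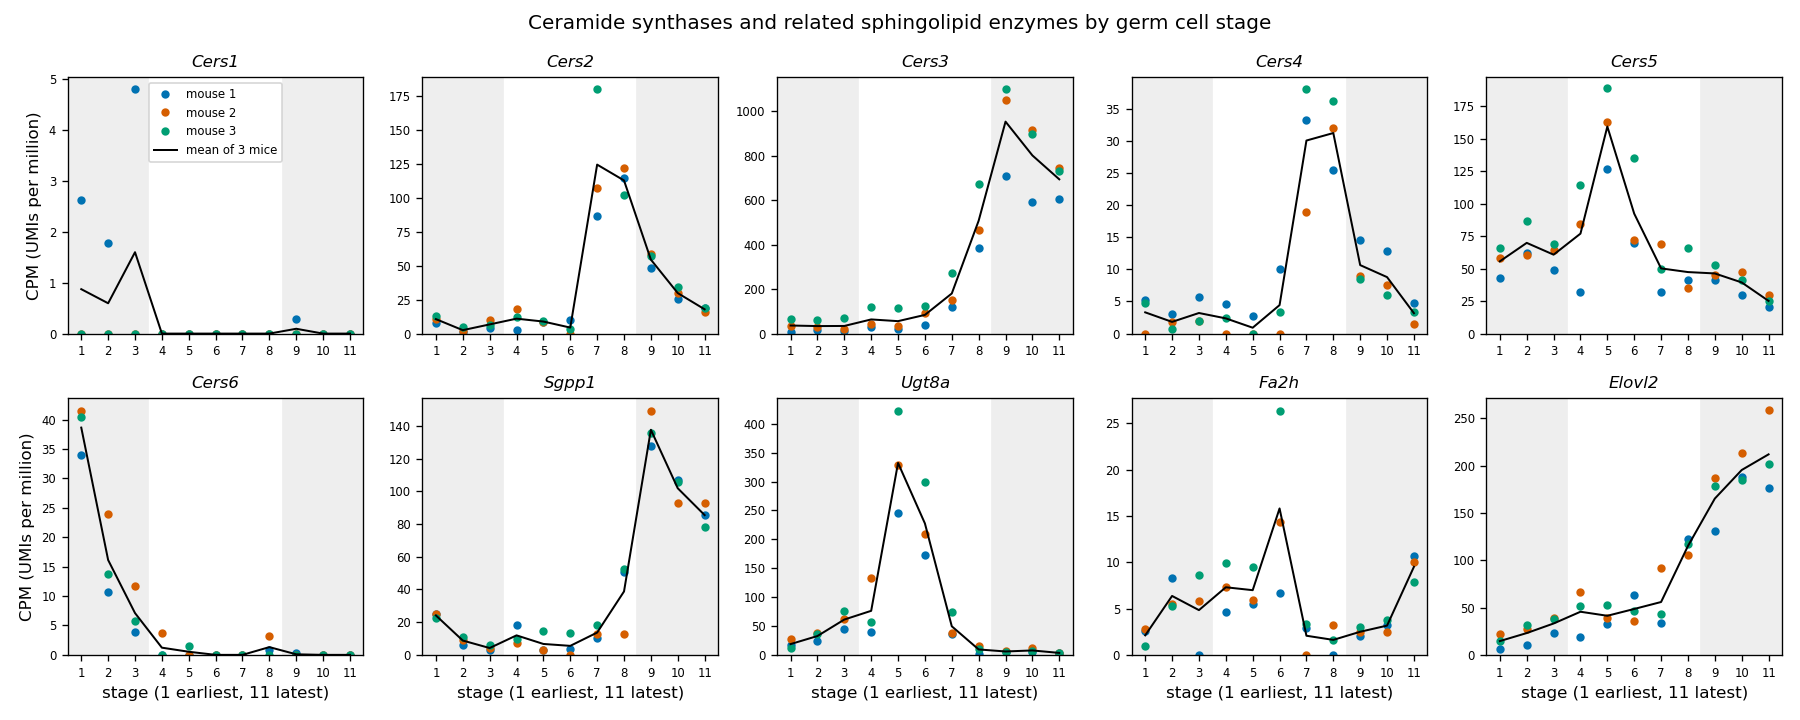
Level of each of the 10 genes (CPM, vertical axes differ) over the 11 stages from spermatogonia to pachytene-like cells. Points are the 3 mice, lines their mean, and grey bands mark the early and late stages. In CPM, Cers6 was highest in stage 1, Cers5 and Ugt8a in stage 5, Cers2 and Cers4 in stages 7 and 8, Cers3 and Sgpp1 in stage 9, and Elovl2 in stage 11.

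In CPM, the isoforms were highest one after another over the stages, in the order Cers6, Cers5, Cers4 with Cers2, then Cers3. Weighting each stage by the CPM gave a mean stage of 1.67 ± 0.26 (SD, n = 3) for Cers6, 5.34 ± 0.08 for Cers5, 7.43 ± 0.38 for Cers4, 7.60 ± 0.17 for Cers2 and 8.99 ± 0.34 for Cers3. The ranges of the mice for Cers4 and Cers2 overlapped, and no others among these isoforms did. Weighting by the level per spike-in gave 1.58 ± 0.16, 6.70 ± 0.17, 8.37 ± 0.20, 8.58 ± 0.09 and 9.70 ± 0.05, in the same order of genes. The stages of the maxima were less apart on that scale: Cers5 and Cers3 were both highest per spike-in in stage 10 in all 3 mice, Cers4 in stage 8 or 10, Cers2 in stages 8, 9 and 10 of mice 1, 2 and 3, and Cers6 in stage 1. As the genes were chosen for this order, it is a description of these mice.

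Cers6 (chromosome 2, 68861441 to 69114282, plus strand; GENCODE vM21 on GRCm38) was a spermatogonial isoform here. In stage 1 it stood at 34.0, 41.5 and 40.4 CPM in mice 1, 2 and 3. In stage 2 it stood at 10.7, 23.9 and 13.8 CPM, and in stage 3 at 3.83, 11.7 and 5.75 CPM. All 3 mice were higher in stage 1 than any mouse in stage 2, while stages 2 and 3 overlapped. From stage 4 on no mouse exceeded 3.67 CPM. There were 0 Cers6 UMIs in stages 6, 7, 10 and 11, which allows at most 4.04, 1.86, 0.29 and 0.59 CPM (3 counts; counting error only). The gene had 157 UMIs in the stages, so its early levels rest on few molecules per cell. With each cell thinned to 3000 UMIs, 15.5 ± 8.6% (SD, n = 3) of stage 1 cells and 2.38 ± 2.44% of stage 2 cells had a Cers6 UMI (50.1% and 27.2% unthinned).

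Cers5 (chromosome 15, 99734881 to 99772885, minus strand) was detected at every stage and took the largest mean share of ceramide synthase UMIs in stages 1 to 6. In stage 5, the preleptotene-like cells, it stood at 127, 163 and 189 CPM in mice 1, 2 and 3. In stage 1 it stood at 43.1, 58.1 and 65.8 CPM, and in stage 11 at 20.2, 30.0 and 25.4 CPM. Each mouse was highest in stage 5, although mouse 3 in stage 6 (135 CPM) overlapped the lowest mouse of stage 5. Mouse 1 was lowest in both stages 1 and 5. After thinning, 37.5 ± 4.0% of stage 5 cells had a Cers5 UMI, against 12.9 ± 8.5% in stage 1 and 8.17 ± 7.36% in stage 11.

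Stage 5 cells had a low mRNA content (log2 -1.61 per spike-in against stage 1), as had stages 4 (-1.74) and 6 (-1.90). Per spike-in too, Cers5 was higher in stage 5 than in stages 4 and 6 in all 3 mice. It stood at 5.52, 3.02 and 2.61 UMIs per 1000 spike-in UMIs in stage 5, for mice 1, 2 and 3. In stage 4 it stood at 1.54, 1.35 and 1.28, and in stage 6 at 3.09, 0.84 and 1.63. Cers5 per cell was 1.21, 1.31 and 2.29 UMIs in stage 5 and 1.57, 1.40 and 2.26 UMIs in stage 1, for mice 1, 2 and 3. It was highest per cell in stage 10, at 3.18, 2.92 and 5.53 UMIs. In late stages it was lower than in early ones by a log2 ratio of -0.67 ± 0.15 in CPM (SD, n = 3; a pseudocount of 5 is added to CPM for all members' ratios), and higher by 0.68 ± 0.22 per spike-in. The middle against early ratio was 0.40 ± 0.17 in CPM and -0.67 ± 0.16 per spike-in. Late against middle was -1.08 ± 0.26 in CPM and 1.35 ± 0.18 per spike-in. All 3 of these ratios for Cers5 thus changed sign between the scales.

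Cers2 (chromosome 3, 95314791 to 95323599, plus strand) was low until stage 6 and high in stages 7 and 8. In stage 6 it stood at 10.01, 0 and 3.30 CPM in mice 1, 2 and 3. In stage 7 it stood at 86.7, 107 and 180 CPM, and in stage 8 at 115, 122 and 102 CPM. No mouse in stages 1 to 6 overlapped any mouse in stage 7 or 8, and stages 7 and 8 overlapped each other. Cers2 was then lower at each later step, at 54.6 ± 5.7 CPM in stage 9, 29.9 ± 4.4 in stage 10 and 17.9 ± 1.9 in stage 11 (SD, n = 3), with no overlap between neighbours. These steps belong to CPM: Cers2 per cell was 2.90 ± 0.41, 2.68 ± 0.42, 3.06 ± 1.41 and 1.39 ± 0.53 UMIs in stages 8 to 11, and per spike-in mice 2 and 3 were higher in stage 9 than in stage 8. The late against middle log2 ratio was -0.55 ± 0.11 in CPM and 1.16 ± 0.26 per spike-in. With coarser clusters (Leiden resolution 0.6) it was 0.43 ± 0.47 in CPM.

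The 3' end of Cers2 overlaps 75 bases of Setdb1 on the opposite strand (chromosome 3, 95323525 to 95323599). Whether the counting used strand is not given in the sources used here, so reads in that overlap could not be assigned with certainty. Setdb1, a histone methyltransferase, was highest in stage 5 at 702 ± 49 CPM, where Cers2 was at 8.89 ± 0.64 CPM. In stage 7, where Cers2 was highest, Setdb1 stood at 190 ± 30.4 CPM.

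Cers4 (chromosome 8, 4493026 to 4531680, plus strand) was highest in the same stages as Cers2 at a lower level. In stage 7 it stood at 33.2, 18.9 and 38.0 CPM in mice 1, 2 and 3, and in stage 8 at 25.4, 32.1 and 36.2 CPM. In stage 6 it stood at 10.01, 0 and 3.30 CPM, and in stage 9 at 14.5, 8.93 and 8.57 CPM, with no overlap with stages 7 and 8. Cers4 rested on 351 UMIs in the stages. Its late against middle log2 ratio was -0.59 ± 0.30 in CPM, 0.72 ± 0.25 per spike-in and 0.26 ± 0.41 in CPM with the coarser clusters.

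Cers3 (chromosome 7, 66743504 to 66823691, plus strand), the testis and skin isoform, was the most abundant member, with 20633 UMIs in the stages. In stage 7 it stood at 119, 151 and 271 CPM in mice 1, 2 and 3. In stage 8 it stood at 384, 465 and 673 CPM, and in stage 9 at 708, 1052 and 1098 CPM. Stage 8 exceeded stage 7 in every mouse without overlap, and stage 9 exceeded stages 10 (801 ± 181 CPM) and 11 (693 ± 76.6 CPM) in mean with overlapping mice. Per cell, Cers3 was highest in stage 10 in all mice, at 63.6, 56 and 121 UMIs, with 36.6, 43.2 and 60.8 UMIs in stage 9 and 40.8, 43.4 and 75.2 UMIs in stage 11. Per spike-in it was also highest in stage 10. The late against middle log2 ratio was 2.22 ± 0.38 in CPM and 4.01 ± 0.32 per spike-in. After thinning, 93.7 ± 2.7% of stage 9 cells had a Cers3 UMI, against 38.3 ± 15.2% in stage 7 and 10.7 ± 7.5% in stage 5 (unthinned 100%, 70.4% and 33.3%).

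The low Cers3 level of the early stages differed between mice. In stage 1 it stood at 9.15, 33.2 and 66.7 CPM in mice 1, 2 and 3. Within mouse 3, the gate-sorted library gave 91.3 CPM and the index-sorted library 31.9 CPM in stage 1. Wells below 1000 UMIs, which may hold no cell, held 0.117, 0.206 and 0.140 Cers3 UMIs per well in mice 1, 2 and 3, and stage 1 cells 0.333, 0.80 and 2.29. The part of free RNA in these early values was not tested, and no expression is read from them.

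Cers1 (chromosome 8, 70315775 to 70331592, plus strand) was close to absent in this set. It had 12 UMIs in all wells, 11 of them in the stages and all in mouse 1. Mice 2 and 3 had 0 UMIs in the stages, which allows at most 0.54 and 0.17 CPM (3 counts; counting error only). Its annotation shares 1771 bases with Gdf1 on the same strand, which also had 12 UMIs, so the source of these UMIs is uncertain.

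As the isoforms followed one another, the summed level of Cers1 to Cers6 was 146 ± 44.4 CPM in stage 1, 114 ± 39.5 in stage 3, 385 ± 138 in stage 7 and 1064 ± 220 in stage 9 (SD, n = 3). Shares of the early stages include Cers3 UMIs whose source was not tested. In stage 1 Cers5 gave 39.1 ± 4.1% of these UMIs, Cers6 27.8 ± 6.1% and Cers3 22.3 ± 13.0%. In stage 5 Cers5 gave 73.4 ± 11.8%. Stage 7 was mixed, with 45.9 ± 3.8% from Cers3, 32.1 ± 1.3% from Cers2, 13.7 ± 5.6% from Cers5 and 8.27 ± 3.58% from Cers4. In stage 11 Cers3 gave 93.7 ± 0.4%. The SD of the Cers3 share over the mice was 17.8 percentage points in stage 3 and 0.4 in stage 11.

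**Figure D2:**
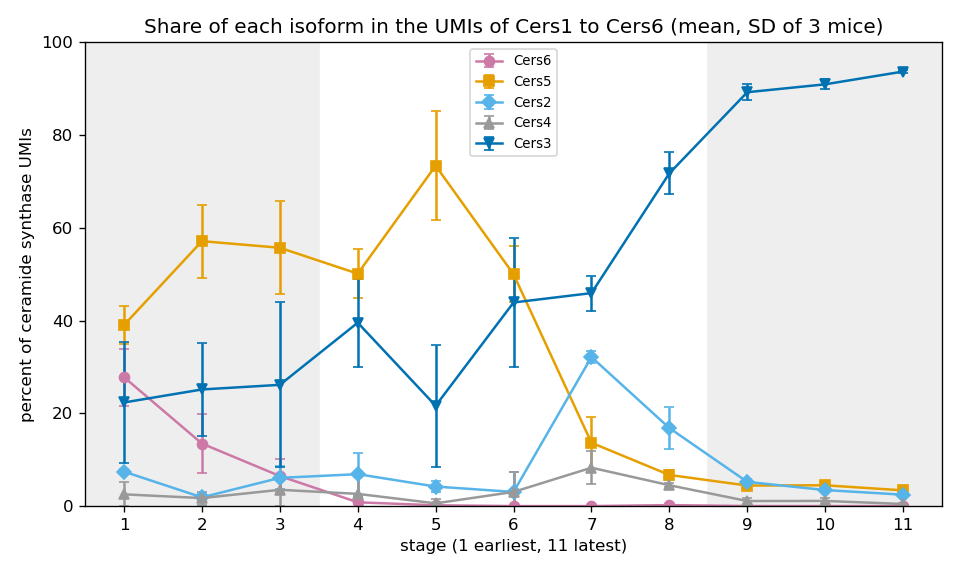
Share of the UMIs of Cers1 to Cers6 that came from each isoform (percent, mean and SD of 3 mice) over the 11 stages; Cers1 is in the sum and not drawn, and grey bands mark the early and late stages. In mean share, the leading isoform is Cers5 in stages 1 to 6 and Cers3 from stage 7, with a Cers2 share of 32.1% in stage 7. Cers3 is already ahead of Cers5 in mouse 3 in stages 1, 3 and 4, and in mouse 2 in stage 6.

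Ugt8a (chromosome 3, 125865271 to 125938619, minus strand), the galactosyltransferase of galactosylceramide and seminolipid, was highest in stages 5 and 6 and low on both sides. In stage 5 it stood at 245, 329 and 423 CPM in mice 1, 2 and 3. In stage 6 it stood at 174, 209 and 300.0 CPM, and in stage 8 at 2.24, 16.04 and 9.87 CPM. Stages 5 and 6 overlapped each other and lay above all other stages in every mouse. Stage 4, the next in mean, stood at 39.3, 132 and 57.1 CPM, and was next in mouse 2 alone. From stage 8 to stage 11 no mouse exceeded 16.04 CPM. After thinning, 59.2 ± 8.0% of stage 5 cells had a Ugt8a UMI, against 4.88 ± 1.72% in stage 1 and 0.833 ± 1.443% in stage 10. Unthinned, the shares were 90.9%, 34.1% and 36.9%, in cells of different depth. In stages 9 and 11 the thinned cells held no Ugt8a UMI, while unthinned 23.6% and 22.5% of cells had one, on 44 and 18 UMIs.

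The peak of Ugt8a was also present per cell and per spike-in. It was 2.34, 2.64 and 5.12 UMIs per cell in stage 5 and 0.619, 0.667 and 0.387 in stage 1, for mice 1, 2 and 3. The middle against early log2 ratio was 1.75 ± 0.17 in CPM and 0.44 ± 0.24 per spike-in. Late against middle was -3.74 ± 0.37 in CPM and -1.31 ± 0.28 per spike-in. Ugt8a and Cers6 (-0.09 ± 0.13) were the 2 members with a late against middle ratio below 0 per spike-in.

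Sgpp1 (chromosome 12, 75714249 to 75735729, minus strand), the sphingosine 1-phosphate phosphatase, was present in stage 1, low through entry into meiosis and highest in CPM in stage 9. In stage 1 it stood at 24.8, 24.9 and 22.6 CPM in mice 1, 2 and 3, and in stage 3 at 2.87, 3.91 and 5.75 CPM. In stage 9 it stood at 128, 149 and 136 CPM. No mouse of stage 9 overlapped stage 10 (102 ± 7.8 CPM), and no mouse of stage 10 overlapped stage 11 (85.5 ± 7.3 CPM). Stage 1 lay above stages 2 to 7 in every mouse. Per cell, Sgpp1 was at 6.75 ± 0.71 UMIs in stage 9 and 10.5 ± 4.4 UMIs in stage 10 (SD, n = 3), and both per cell and per spike-in it was highest in stage 10 in mice 1 and 3 and in stage 9 in mouse 2. The late against early log2 ratio was 2.71 ± 0.08 in CPM and 4.00 ± 0.12 per spike-in, and after thinning 38.2 ± 3.8% of stage 9 cells had a Sgpp1 UMI.

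Elovl2 (chromosome 13, 41182381 to 41220405, minus strand), the fatty acid elongase, was higher in mean at each later stage except stage 5. In stage 1 it stood at 6.54, 22.1 and 15.04 CPM in mice 1, 2 and 3, in stage 8 at 122.6, 106 and 117 CPM, and in stage 11 at 176, 258 and 201 CPM. Stages 7, 8 and 9 did not overlap, while stages 9, 10 and 11 did. The late against early log2 ratio was 2.82 ± 0.35 in CPM and 4.37 ± 0.18 per spike-in.

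Fa2h (chromosome 8, 111345135 to 111393824, minus strand), the fatty acid hydroxylase, was low throughout, with 178 UMIs in the stages. In stage 6 it stood at 6.68, 14.4 and 26.4 CPM in mice 1, 2 and 3, in stage 8 at 0, 3.21 and 1.64 CPM, and in stage 11 at 10.7, 9.995 and 7.86 CPM. All neighbouring stages in the order of its levels overlapped. Mouse 1 was highest in stage 11 and mice 2 and 3 in stage 6. The late against middle log2 ratio of Fa2h was -0.19 ± 0.41 in CPM, within its spread over mice, and 1.33 ± 0.12 per spike-in.

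**Figure D3:**
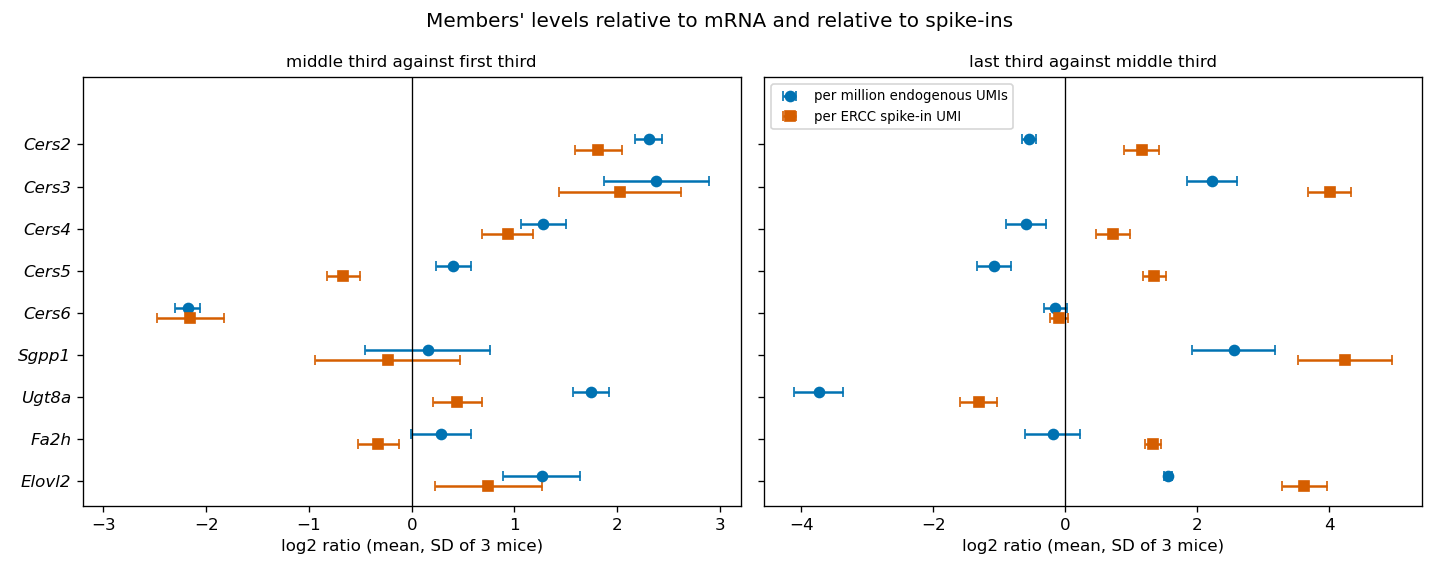
Log2 ratio of the members' levels between groups of stages (mean and SD of 3 mice), relative to endogenous UMIs (circles) and to ERCC spike-in UMIs (squares). Left: middle against early stages. Right: late against middle stages. Cers5 and Fa2h lie on opposite sides of 0 on the 2 scales in both panels, Sgpp1 in the left panel and Cers2 and Cers4 in the right panel, while Cers3, Elovl2 and Ugt8a keep their side.

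Across the 33 sums of mouse and stage, the profiles of the members were compared with each other and with all abundant genes. The Pearson correlation of log2(CPM + 5), given as a description over sums that share stages and mice, was 0.90 between Cers3 and Elovl2, 0.82 between Cers3 and Sgpp1 and 0.81 between Cers5 and Ugt8a. It was -0.81 between Sgpp1 and Ugt8a. Among 9634 genes with a mean of at least 10 CPM, the genes most like Cers3 were Hsf5 (0.98), Hspa4l (0.98) and Ndufaf3 (0.98). Those most like Ugt8a were Kdm6a (0.95), Prdm9 (0.95), a histone methyltransferase that places meiotic double-strand breaks, and Chuk (0.95). Those most like Cers2 were Arhgef25 (0.90), the histone variant gene H2afx (0.89) and Scamp1 (0.86). Eif4enif1 (0.89), Limk2 (0.87) and Lrrc42 (0.86) were most like Cers5. Agbl5, Rsph9 and Tdrd1 were most like Sgpp1 (0.94 each), and Tex2 (0.97), 4732415M23Rik (0.95) and Dyx1c1 (0.95) were most like Elovl2.

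The rest of the pathway was taken from a list of 82 other sphingolipid genes in 8 roles, of which 78 were in the table and 55 had enough UMIs to be tested. They were tested between groups of stages with edgeR's quasi-likelihood test, each stage weighted equally, with the mouse as a block and p-values adjusted over 11220 genes (threshold 0.05). Late against early, 17 of the 55 rose and 29 fell, where 40.6% of all genes tested rose and 44.8% fell. Middle against early, 13 rose and 21 fell, with 29.2% and 40.4% of all genes. Late against middle, 18 rose and 25 fell, with 41% and 34% of all genes. The median log2 fold change of the 55 genes was -0.38 late against early, with -0.11 over all genes. Per spike-in, where the median of all genes moved to 1.15 late against early, -1.24 middle against early and 2.38 late against middle, the counts were 30 rising and 19 falling, 3 and 42, and 41 and 5. No share of all genes is given beside the counts per spike-in, here or by role below, so they are not read as a result about these genes. The counts by role below were not tested against the shares of all genes. All 30 fold changes named by the rule for list genes kept their direction per spike-in. They were named for their size, and within a comparison the scale shifts most genes the same way. This outcome was thus largely set by the choice. Other list genes changed direction, among them Sptlc1 and Sptlc2 below.

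In the first steps of ceramide synthesis, late against early, 2 of 8 tested genes rose and 6 fell (4 and 2 per spike-in). Sptssa, a small subunit that activates serine palmitoyltransferase, rose from 8.98 ± 2.97 CPM in middle to 86.5 ± 13.6 CPM in late stages (SD, n = 3; log2 fold change 3.47 ± 0.14 SE, edgeR adjusted p = 7.93e-22). Ormdl3, which inhibits the same enzyme, fell from 125 ± 41.6 CPM in early to 2.27 ± 1.14 CPM in late stages (log2 fold change -5.57 ± 0.21 SE, edgeR adjusted p = 1.43e-23). The large subunit genes Sptlc1 and Sptlc2 fell late against middle in CPM and rose per spike-in (log2 fold changes of -0.59 and -1.16 against 1.76 and 1.204); they were chosen after their values were seen.

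Genes of fatty acid elongation and desaturation, the group of Elovl2, mostly fell in CPM. Late against early, 0 of 7 tested genes rose and 6 fell, and per spike-in 1 rose (Elovl7, named after its value was seen) and 5 fell. Elovl5, an elongase of polyunsaturated chains, stood at 69.6, 72.1 and 86.6 CPM in early stages of mice 1, 2 and 3 and at 0.645, 1.58 and 1.95 CPM in late stages (log2 fold change -5.44 ± 0.26 SE, edgeR adjusted p = 2.15e-20). Hsd17b12, the ketoreductase of the elongation cycle, fell from 62.1 ± 15.7 CPM in middle to 5.06 ± 2.59 CPM in late stages (log2 fold change -3.30 ± 0.17 SE, edgeR adjusted p = 5.60e-19), with -0.93 per spike-in. Fads2, a desaturase, fell from 11.1 ± 4.0 CPM in early to 0.384 ± 0.394 CPM in late stages, on 107 UMIs in all.

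**Figure D4:**
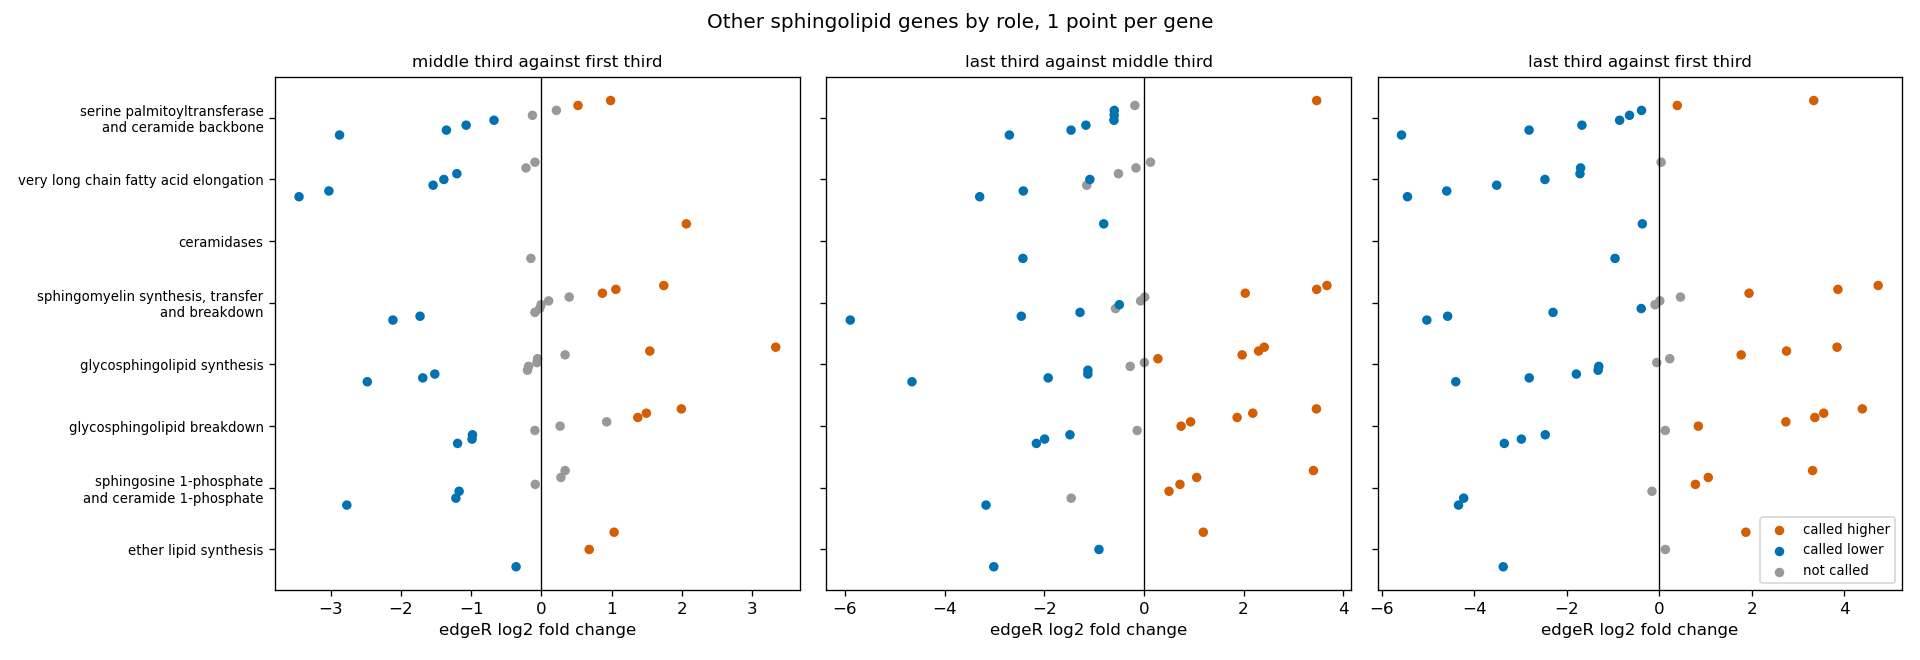
Log2 fold change (edgeR) of each of the 55 tested pathway genes by role, in 3 comparisons of stage groups. Each point is a gene; orange points passed the test as higher, blue as lower, and grey points did not pass. In the panel of late against early stages (17 orange and 29 blue), the elongation genes and the ceramidases hold no orange point, and all other roles hold both colours.

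The genes of seminolipid metabolism were high in different stages. Gal3st1, which adds the sulphate after UGT8A has added galactose, stood at 1.47, 3.87 and 3.09 CPM in early, 16.04, 47.8 and 34.1 CPM in middle and 0.0776, 1.70 and 0.524 CPM in late stages of mice 1, 2 and 3. All mice were highest in the middle stages, as for Ugt8a, and the highest mean was in stage 5 at 60.1 ± 11.6 CPM (stage 6 58.9 ± 40.5). Gal3st1 rose from early to middle stages (log2 fold change 3.33 ± 0.39 SE, edgeR adjusted p = 2.74e-09) and fell from middle to late stages (-4.66 ± 0.41 SE, edgeR adjusted p = 1.32e-12). Both changes passed the test per spike-in, with log2 fold changes of 2.21 and -2.44.

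The enzymes that break these lipids down were high later. Arsa, the sulphatase that removes the sulphate, stood at 4.48, 4.31 and 13.7 CPM in middle and 67.5, 68.8 and 104 CPM in late stages (log2 fold change 3.46 ± 0.25 SE, edgeR adjusted p = 8.27e-15). Galc, the galactosidase that removes the galactose, also rose late against middle, from 26.9 to 75.6 CPM (log2 fold change 1.87, edgeR adjusted p = 7.53e-16); it was chosen after its value was seen. Arsa was highest in stage 11 (147 ± 48.2 CPM) and Galc was at 71.2 to 78.1 CPM in mean in stages 9 to 11.

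Of 3 tested ether lipid genes, 1 rose and 2 fell late against middle (2 and 1 per spike-in). Agps, which forms the ether bond in peroxisomes, fell from 81.9 ± 4.6 CPM in middle to 8.29 ± 2.73 CPM in late stages (log2 fold change -3.01 ± 0.14 SE, edgeR adjusted p = 1.85e-20), with -0.66 per spike-in. Its highest mean was 146 ± 4.6 CPM in stage 6. Gnpat, the acyltransferase of the step before, rose late against middle, from 148 to 256 CPM (log2 fold change 1.19, edgeR adjusted p = 4.86e-17), and was chosen after its value was seen.

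**Figure D5:**
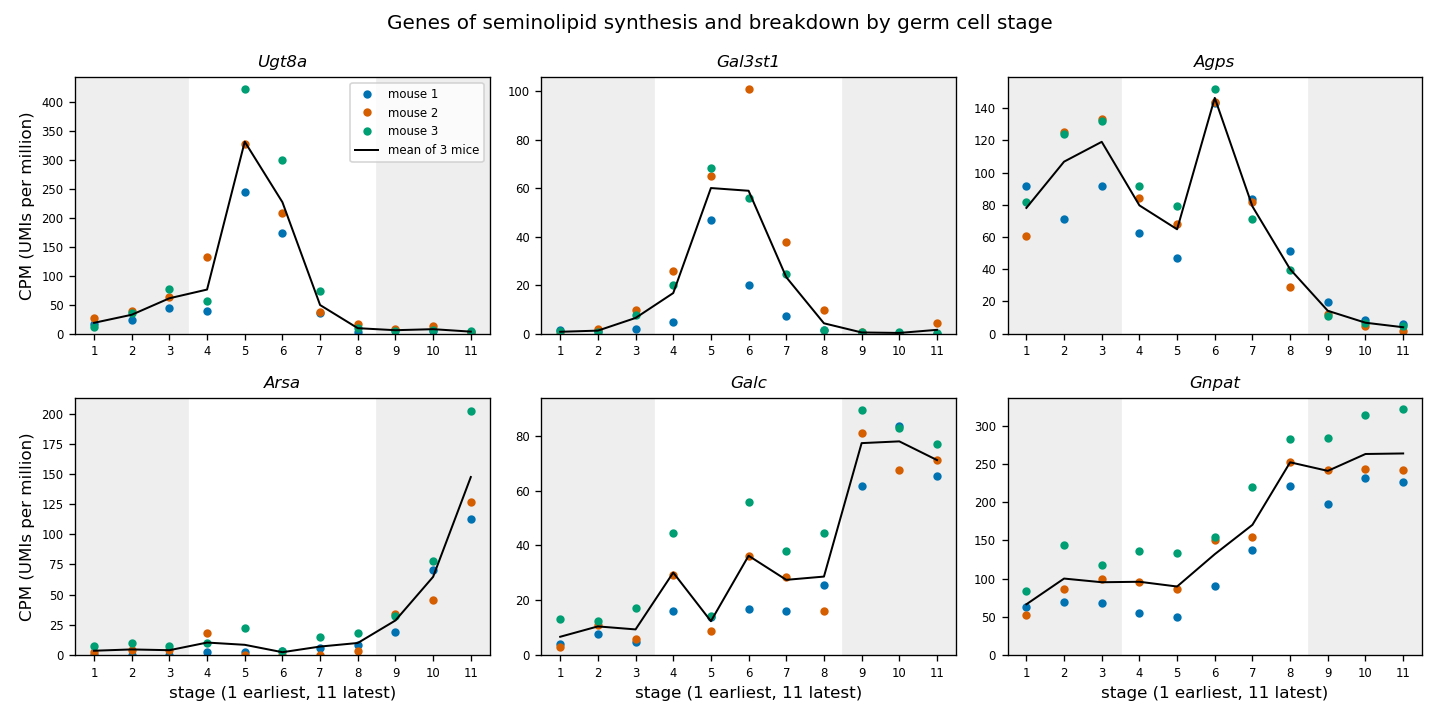
Level (CPM, vertical axes differ) of 6 genes of seminolipid synthesis (Ugt8a, Gal3st1, Agps, Gnpat) and breakdown (Arsa, Galc) over the 11 stages. Points are the 3 mice, lines their mean, and grey bands mark the early and late stages. In CPM, Ugt8a and Gal3st1 are highest in stage 5, Agps in stage 6, and Arsa in stage 11.

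Among sphingomyelin genes late against early, 3 of 10 rose and 4 fell (7 and 3 per spike-in). Smpd5, a sphingomyelinase gene, stood at 4.58, 12.9 and 24.7 CPM in early and 196, 306 and 355 CPM in late stages of mice 1, 2 and 3 (log2 fold change 4.74 ± 0.14 SE, edgeR adjusted p = 3.66e-26). Smpdl3a, a related phosphodiesterase, rose from 4.08 ± 2.16 to 42.5 ± 2.7 CPM. Smpd1, the lysosomal sphingomyelinase, fell from 19.6 ± 2.7 CPM in middle to 0.228 ± 0.085 CPM in late stages (edgeR adjusted p = 1.00e-14); it had 0 UMIs in 1 stage, so its fitted fold depends on the prior count. Smpd2, the neutral enzyme, fell from 42.4 ± 11.3 to 1.60 ± 0.39 CPM late against early. Smpd3 rose from early (7.49 ± 5.29 CPM) to middle stages (29.0 ± 9.1 CPM), with an edgeR adjusted p of 2.35e-05 that became 0.059 per spike-in.

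Sphingosine 1-phosphate genes, to which Sgpp1 belongs, held 6 tested genes, of which 3 rose and 2 fell late against early (4 and 2 per spike-in). Sgpl1, the lyase that destroys sphingosine 1-phosphate, stood at 99.8, 186 and 170 CPM in middle and 3.80, 10.3 and 8.15 CPM in late stages of mice 1, 2 and 3, with no overlap (log2 fold change -3.17 ± 0.19 SE, edgeR adjusted p = 4.74e-17). Per spike-in this log2 fold change was -0.81. In CPM it was highest in stage 5 at 405 ± 135 CPM, and in stage 9, where Sgpp1 was highest in CPM, it stood at 8.75 ± 4.26 CPM. Cerk, which phosphorylates ceramide, rose from 6.95 ± 1.84 to 59.2 ± 7.1 CPM late against middle. Spns2, a transporter of sphingosine 1-phosphate, fell middle against early (log2 fold change -2.77 ± 0.43 SE, edgeR adjusted p = 7.54e-07), had 0 UMIs in 1 of those stages, and with UMIs summed over each group of stages gave -0.80 (log2) and an adjusted p of 0.071. Of the 2 ceramidases tested, Acer3 rose from 49.7 ± 4.2 CPM in early to 222 ± 15.7 CPM in middle stages and stood at 35.5 CPM in late stages. Late against middle, its log2 fold change was -2.43 in CPM and -0.07 per spike-in (edgeR adjusted p = 0.67), and late against early -0.36 in CPM and 0.89 per spike-in.

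Glycosphingolipid genes divided between directions, as did all genes tested (40.6% rose and 44.8% fell late against early). Of 10 synthesis genes late against early, 3 rose and 5 fell (5 and 3 per spike-in), and of 9 breakdown genes 5 rose and 3 fell (6 and 3 per spike-in). B3galnt1, the globoside synthase, rose from 9.07 ± 5.75 to 96.2 ± 14.7 CPM late against early (log2 fold change 3.85 ± 0.21 SE, edgeR adjusted p = 7.01e-19). Its middle against early change (1.54, edgeR adjusted p = 5.93e-05) gave an adjusted p of 0.19 per spike-in, 0.063 and 0.13 with coarser and finer clusters, and 0.97 without mouse 3. St3gal2, a ganglioside sialyltransferase, fell middle against early, from 26.0 ± 5.0 to 5.66 ± 0.77 CPM. Gba2, the non-lysosomal glucosylceramidase, rose from 9.58 ± 5.95 to 80.7 ± 18.8 CPM late against early, and Gm2a, the ganglioside activator, from 10.8 ± 3.2 to 50.1 ± 5.8 CPM middle against early.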

How the data were processed

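Single-cell RNA of 11 libraries (8, 1 and 2 from mice 1, 2 and 3) was used. The authors deposited UMI counts per gene and well, read counts, and transcripts, which are estimated counts equal to the UMI count corrected for tag collisions. BWA 0.7.10 and mm10 are named per the submitters' processing notes; annotation, counting tool and use of strand are not given in the sources used here. Libraries of mouse 1 could not be told apart by column and were pooled.

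UMIs on autosomes, X and Y were totalled without spike-ins, mitochondrial genes, eGFP and Rn45s (Python 3.11.15, pandas 2.3.3). Wells with at least 1000 UMIs were kept. Each well received 1 sorted cell, so doublets were not removed. Stages came from odd-autosome genes (detected in 20 cells or more), leaving out members, pathway lists and somatic markers: 1500 variable genes, Seurat 5.3.0 anchors, and scanpy 1.11.5 (15 components, 15 neighbours, Leiden resolution 1.0). A stage needed at least 10 cells from each of 2 mice and a median depth of at least 1/3 of the overall one. Of 15 clusters, 3 were left out for low depth (266 cells). Another 1, led by protamine genes (22 cells), was left out for too few cells per mouse (5, 7 and 10 in mice 1, 2 and 3). UMIs were summed per mouse and stage (33 sums, 138940 to 5115563 UMIs), and depth limits precision most in stages 4 to 7.

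Pathway genes were tested on these sums with edgeR 4.0.16 (R 4.3.3; quasi-likelihood, TMM, low counts filtered by edgeR's default), after a test on simulated data. Same-mouse sums came from 1 animal and deviated together (median correlation 0.679 over 165 pairs, lowest 0.368), so the mouse was a block. The estimated counts were rounded for the alternative that used them; DESeq2 1.42.0 was another. List genes were named as the 5 largest rises and falls per comparison that passed the test in the same direction in 3 mice. Members, lists and stages were chosen with earlier results of these data known. Nothing in the labels names separate preparations within a mouse. With the mouse as a block, p-values measure the scatter of the sums around the mouse and stage levels. The stage sums of a mouse count separately there, so p-values do not measure the spread of a change over 3 mice.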

Additional observations from a re-analysis of the deposited data

Results flagged for a closer look

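The 22 cells of an elongating spermatid-like cluster, which was left out of the stages, held UMIs of most members above the limit that a count of 0 allows (3 UMIs, 3.73 CPM). Over its 804390 UMIs, Cers3 stood at 607.9 CPM, Elovl2 at 140.5, Sgpp1 at 78.32 and Cers5 at 60.92. Cers2 stood at 34.81 CPM, Ugt8a at 14.92, Fa2h at 13.68 and Cers4 at 11.19, on 28, 12, 11 and 9 UMIs. Cers6 and Cers1 had 0 UMIs there. In mice 1, 2 and 3 Cers3 was at 330, 687 and 687 CPM. Wells below 1000 UMIs held Cers3 at 362 CPM over 65 UMIs, and the part of free RNA in the values of this cluster was not tested.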

How the results depend on the processing

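Counts of pathway genes that rose and fell stayed within 1.5 times the main count in 96 of 102 recomputed counts. The other 6 were those per ERCC spike-in: 30 and 19 late against early, 3 and 42 middle against early, and 41 and 5 late against middle. Without the replicate block the counts were 14 and 24, 13 and 18, and 15 and 22. Leaving out each mouse in turn gave 16 to 17 rising and 26 to 32 falling genes late against early, 11 to 13 and 19 to 24 middle against early, and 16 to 18 and 20 to 24 late against middle. Among named genes, 504 of 510 recomputed calls held. The others were B3galnt1 (4), Smpd3 and Spns2, all middle against early. Without alignment across mice, no stage held more than 4 cells of mouse 1. Sums needed 5 cells, so that run rests on mice 2 and 3. A cluster named elongating spermatid-like from its leading genes was kept as an early stage at Leiden resolution 0.6 (227 cells). Its mean log level of spermatid markers exceeded that of the other cells by 0.092, against 1.28 for the 22 cells of the main run. Esx1, a leading gene of stages 3 and 4, was also among its leading genes. How many spermatids it held was not tested, and the name does not describe all of its cells. With igraph Leiden such a cluster was a late stage (84 cells), and without alignment a middle stage (52 cells). Member ratios changed sign in 22 of 477 recomputations. Of these, 15 were ratios no larger than their SD over mice (Fa2h 10, Sgpp1 4, Cers6 1). The other 7 were Cers5 per spike-in (0.68 late against early, -0.67 middle against early, 1.35 late against middle), and, late against middle, Cers2 (1.16) and Cers4 (0.72) per spike-in and Cers2 (0.43) and Cers4 (0.26) at Leiden resolution 0.6. Beside these 7, ratios moved by more than 1 SD over mice in 109 recomputations, some of them among the 15 sign changes above. Shares of cells moved in 27 of 30 recomputations at other thinning depths. Spike-in levels differ by the mRNA content of the stages. Stage 8, led by Gnas and Hemt1 (83 cells), where Cers2 and Cers4 were high, was a middle stage. At resolution 0.6 the cluster led by these genes (63 cells) was a late stage. Whether this caused the change of sign was not tested. The igraph Leiden clusters, the sums over groups of stages and the run without the gate-sorted library were chosen after seeing the data. Stages 10 and 11 had close pseudotimes (0.92 and 0.94) and changed places with igraph Leiden. Stages 3 and 4, at the border of the early and middle stages, also had close pseudotimes (0.319 and 0.328). Clusters led by BC024386, a leading gene of stage 4, were early stages at Leiden resolution 1.5 and with igraph Leiden. Depth limits Cers1, Cers6, Fa2h and Cers4 most.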
